A study of Mus musculus with 9 samples.

Results

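Polycomb repressive complex 2 (PRC2) was followed here through 7 of its subunit genes, Ezh1, Ezh2, Eed, Suz12, Jarid2, Phf19 and Mtf2, in peptide-activated CD8 T cells of 3 clones. The genes were picked by name as subunits of the complex, and all 7 were found among the 24060 genes of the table and among the 11330 genes that passed the filter of a maximum TPM (a level corrected for gene length and scaled to the same total in each library) above 1. The cells came from the spleens of transnuclear mice of the lines R7-I, R7-II and R7-III, which are made from the nucleus of a single T cell and so carry a single T cell receptor each, on the CD90.2+ BALB/c background with functional Rag2. The 3 receptors recognise the same peptide, ROP7 of Toxoplasma gondii. Their affinity for it, measured on purified proteins, is ranked R7-I above R7-III above R7-II, and their self-reactivity R7-III above R7-I above R7-II. Measured by the authors at the cell membrane, the affinities of R7-I and R7-III were similar, and that of R7-II was lower. Splenocytes of all clones were given ROP7 peptide at 10 µM together with 10 ng/ml IL-2 overnight, and live CD3+ CD8+ cells that bound the ROP7 tetramer were sorted, with 3 libraries per clone. The labels call the libraries biological replicates without saying which animals they came from, so the p-values measure the spread between these libraries, and each clone stands for 1 receptor. No age or sex of the mice and no unstimulated sample was used here.

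PRC2 silences genes by placing methyl groups on lysine 27 of histone H3 (H3K27). Its core holds a methyltransferase, either Ezh2 or its paralog Ezh1, together with Eed, which binds the finished mark and stimulates the enzyme, and Suz12, the scaffold of the complex. Ezh2 is typical of dividing cells, while Ezh1 is a weaker enzyme that is found in resting and differentiated cells as well. Accessory subunits come in alternative sets: a Polycomb-like protein (Phf1, Mtf2 or Phf19) on the one hand, Jarid2 with Aebp2 on the other, and they guide the complex to chromatin. In CD8 T cells PRC2 is known to silence genes of the naive and memory programme during effector differentiation.

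The RNA fitted its label as T cells, with CD3, CD8 and other T cell markers summing to 1630 to 1722 TPM in R7-I, 2360 to 2490 in R7-II and 1735 to 1835 in R7-III, and with Cd8b1 (0.69 and 0.67, log2), Cd3g (0.81 and 0.45) and Cd3d (0.63 and 0.44) higher in R7-II than in the other clones. Between 13738 and 14434 genes had a TPM above 0 per library, and TPM does not keep the number of reads, so the depth of each library is unknown and no counting error is given. RNA of other cells was present at a low level and was highest in the R7-II libraries. The 7 B cell markers summed to 8.04 to 14.8 TPM in R7-I, 33.0 to 69.2 in R7-II and 5.02 to 7.21 in R7-III. All 7 were higher in R7-II than in each other clone, led by Cd79b (log2 fold change 2.11 and 2.58), Cd79a (1.98 and 2.64) and Ms4a1 (1.54 and 1.88), as were all 4 MHC class II genes, led by Cd74 (2.10 and 2.74), H2-Aa (1.91 and 2.502) and H2-Eb1 (1.79 and 2.20). Of 6 tested myeloid markers 3 were called against both clones, Lyz2 (4.34 and 3.35), Csf1r (1.33 and 1.37) and Emr1 (0.76 and 0.72). The 7 myeloid markers listed summed to 0.63 to 0.88, 16.2 to 67.7 and 1.88 to 2.93 TPM in the same order. The CD4 T cell list summed to 3.00 to 3.55, 3.02 to 4.74 and 5.33 to 7.71 TPM and the erythroid list to 0.42 to 8.02, 0.29 to 1.30 and 0.44 to 23.2 TPM, while the NK cell list did not exceed 0.17 TPM in any library. The part of such RNA in the values below was not tested, and in bulk RNA a change in the number of cells of a kind cannot be told apart from a change of RNA per cell.

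Differences between clones were tested with limma on log2(TPM + 1), all 9 libraries in 1 fit, and a gene was called at an adjusted p below 0.01. R7-II differed from R7-I in all 7 PRC2 members, with Ezh1, Jarid2 and Mtf2 higher and Ezh2, Eed, Suz12 and Phf19 lower. Over all genes tested 56.1% were called in this comparison, 40.6% higher and 15.5% lower. The same 3 members were higher and the same 4 lower in R7-II than in R7-III, a comparison that uses the same R7-II libraries and in which 53.6% of all genes were called, 35.6% higher and 18.0% lower. R7-III differed from R7-I in 2 members, Ezh2 and Phf19, both higher, where 8.41% of all genes were called, 6.96% higher and 1.45% lower. The libraries of all 7 members did not overlap in either comparison of R7-II, as for 50.6% of all genes higher and 20.6% lower against R7-I, and 46.4% and 24.3% against R7-III. The median log2 fold change of the members was -0.13, -0.18 and 0.06 in these comparisons, beside 0.17, 0.12 and 0.04 over all genes tested. After division of each library by a median-of-ratios factor the medians over all genes were -0.00, -0.00 and -0.00, so the shift of all genes in R7-II depends on the scaling.

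Ezh2, the main methyltransferase of dividing cells, stood at 122.52, 114.88 and 117.25 TPM in R7-I replicates 1, 2 and 3, 94.80, 103.80 and 101.84 in those of R7-II and 139.18, 135.30 and 138.48 in those of R7-III. The 3 clones did not overlap: every R7-III library lay above every R7-I library, and every R7-II library below them. The mean fell from 118 ± 3.91 TPM in R7-I to 100.1 ± 4.73 TPM in R7-II (SD, n = 3 each), a log2 fold change of -0.24 (SE 0.0397, limma adjusted p = 3.44e-04). Against R7-III, at 138 ± 2.07 TPM, R7-II was lower by a log2 fold change of -0.46 (limma adjusted p = 3.68e-06). Relative to the median of all genes these differences were -0.40 and -0.58. R7-III exceeded R7-I by a log2 fold change of 0.22 (limma adjusted p = 0.00400), or 16.4% of the mean TPM. That call was lost with a median-of-ratios factor per library (0.16, limma adjusted p = 0.0448) and when any of 5 single libraries was left out (R7-I replicate 2 or 3, or any R7-III replicate), with adjusted p between 0.0134 and 0.0207.

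Ezh1, the alternative methyltransferase, moved the other way. Its level was 16.84, 16.63 and 16.84 TPM in the R7-I replicates, 35.53, 30.27 and 32.13 in those of R7-II and 15.99, 16.40 and 18.30 in those of R7-III. R7-II lay clear of both other clones, which overlapped each other. The R7-II mean of 32.6 ± 2.67 TPM was 1.95 times the 16.8 ± 0.121 TPM of R7-I (log2 fold change 0.92, SE 0.0674, limma adjusted p = 1.13e-06) and 1.93 times the 16.9 ± 1.23 TPM of R7-III (0.91, limma adjusted p = 1.16e-06). R7-III and R7-I were close, with a log2 fold change of 0.01 (95% interval -0.14 to 0.16, limma adjusted p = 0.956). Relative to the median of all genes Ezh1 was higher in R7-II by 0.75 and 0.79. Among the R7-II libraries, replicate 2 was lowest both in Ezh1 and in B cell and myeloid marker RNA (33.0 and 16.2 TPM). Jarid2 and Mtf2, also higher in R7-II, were instead lowest in replicate 3, which had the most myeloid marker RNA (67.7 TPM). Over all alternatives, leaving out each library included, the log2 fold change of Ezh1 in R7-II was 0.68 to 0.97 against R7-I and 0.75 to 0.97 against R7-III.

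The balance between the paralogs was therefore read within each library, where it does not depend on the scaling. Ezh2 was 7.28, 6.91 and 6.96 times Ezh1 in R7-I, 2.67, 3.43 and 3.17 times in R7-II and 8.70, 8.25 and 7.57 times in R7-III. R7-II lay far below both other clones, and the lowest R7-III library lay just above the highest R7-I library. The means were 7.05 ± 0.198, 3.09 ± 0.387 and 8.17 ± 0.572 (SD, n = 3 each), and the 3 clones differed in an exact two-sided permutation test over all 1680 arrangements of the 9 libraries (p = 0.00357, the smallest it can give; adjusted over the 5 ratios, 0.00595). The ratio was 2.29-fold lower in R7-II than in R7-I (log2 difference -1.20, 95% interval -1.45 to -0.95) and 2.66-fold lower than in R7-III (-1.41). R7-III was above R7-I by 0.21 (log2) with an interval that spans 0 (-0.04 to 0.46), and 3 against 3 libraries cannot give an exact p below 0.1. Counted together, Ezh1 and Ezh2 came to 135 ± 4.00 TPM in R7-I, 133 ± 2.13 in R7-II and 155 ± 2.60 in R7-III, so the sums of R7-I and R7-II differed by less than the SD of R7-I. Unlike the ratio, this sum depends on the scaling. The median-of-ratios factors were 0.942 to 0.957 in R7-I and 1.05 to 1.11 in R7-II, so dividing by them lowers the R7-II sum relative to R7-I. Of that sum Ezh1 made up 12.4% ± 0.302 in R7-I, 24.6% ± 2.40 in R7-II and 10.9% ± 0.692 in R7-III. These are shares of RNA, and the proteins and the H3K27 mark were not measured in these libraries.

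**Figure D1:**
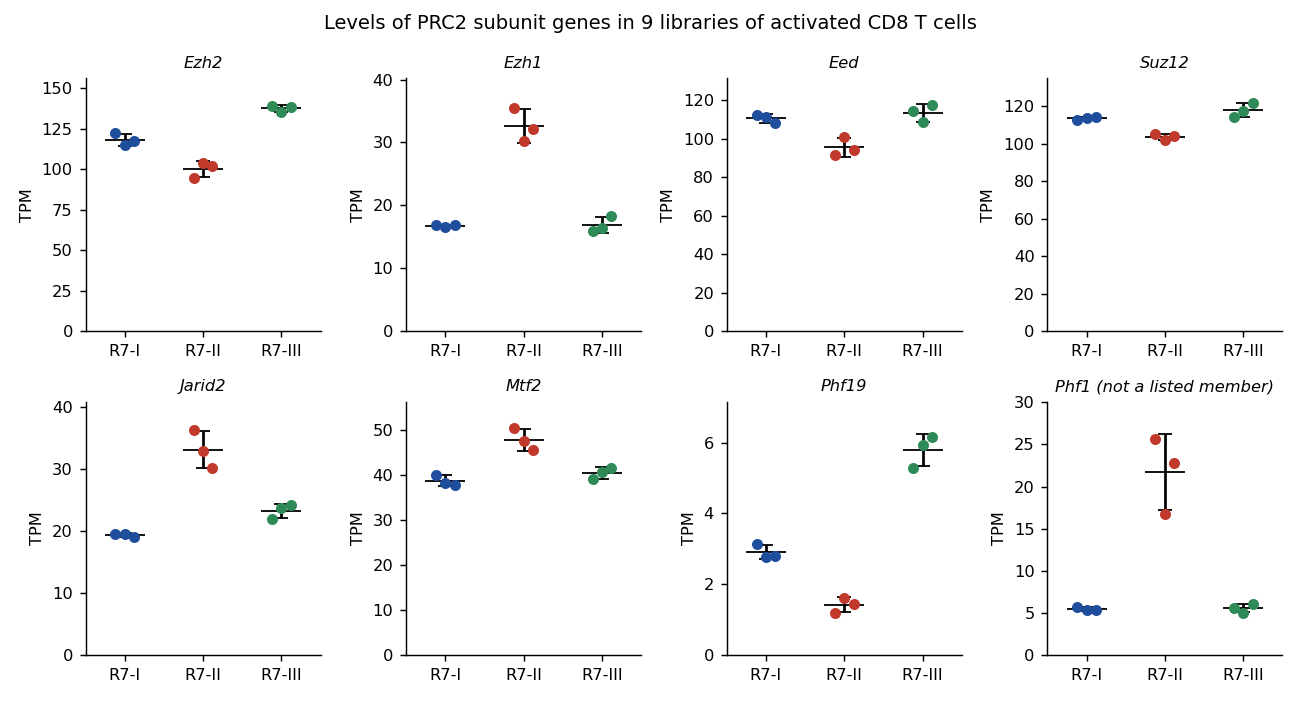
Level (TPM, linear axis from 0) of the 7 PRC2 members and of Phf1 in each of the 9 libraries, by clone; points are libraries, the long bar the mean and the whiskers the SD (n = 3). Ezh1, Jarid2, Mtf2 and Phf1 are highest in R7-II, whereas Ezh2 and Phf19 fall in the order R7-III, R7-I, R7-II.

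Eed and Suz12, the partners without which neither paralog is active, were also lower in R7-II. Eed measured 112.69, 111.56 and 108.17 TPM in the R7-I replicates, 91.63, 101.11 and 94.18 in those of R7-II and 114.54, 108.60 and 117.58 in those of R7-III. R7-II did not overlap the other clones, which overlapped each other. It fell in R7-II by a log2 fold change of -0.21 against R7-I (SE 0.0434, limma adjusted p = 0.00138) and -0.25 against R7-III (limma adjusted p = 5.34e-04), and 0.03 for R7-III against R7-I (adjusted p = 0.633). Suz12 measured 112.56, 113.64 and 114.49 TPM in the R7-I libraries, 105.46, 102.20 and 103.99 in those of R7-II and 114.27, 117.70 and 121.70 in those of R7-III. Its R7-II libraries again lay below all others, by a log2 fold change of -0.13 against R7-I (SE 0.0315, limma adjusted p = 0.00433) and -0.18 against R7-III (limma adjusted p = 5.00e-04), the smallest changes among the members called in R7-II. The call against R7-I was lost without any of 5 single libraries (each R7-I replicate and R7-II replicates 2 and 3), with adjusted p between 0.0117 and 0.0163. Relative to the median of all genes, Eed differed in R7-II by -0.38 and -0.37 and Suz12 by -0.29 and -0.30.

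The core subunits were close to each other in level. Ezh2 was 1.07 ± 0.0323 times Eed in R7-I, 1.05 ± 0.0296 in R7-II and 1.21 ± 0.0341 in R7-III, and 1.04 ± 0.0415, 0.965 ± 0.0597 and 1.17 ± 0.0433 times Suz12. Both ratios differed over the 3 clones (exact permutation p = 0.0143 and 0.00714; adjusted 0.0143 and 0.00893), and in both R7-III lay above the other clones without overlap while R7-I and R7-II overlapped. For Ezh2 to Eed the log2 difference of R7-II from R7-I was -0.03 (95% interval -0.11 to 0.06), and for Ezh2 to Suz12 it was -0.11 (-0.25 to 0.03). The 3 core genes other than Ezh1 thus stood in a similar proportion in R7-I and R7-II, within these intervals, and Ezh2 stood higher against its partners in R7-III than in R7-I by 0.19 and 0.17 (log2).

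Jarid2, a jumonji-family protein without demethylase activity that helps to recruit PRC2, was higher in R7-II. It measured 19.47, 19.51 and 19.01 TPM in the R7-I replicates, 36.19, 32.88 and 30.16 in those of R7-II and 21.89, 23.68 and 24.09 in those of R7-III. The 3 clones did not overlap, in the order R7-I, R7-III, R7-II. The log2 fold change was 0.74 for R7-II against R7-I (SE 0.0653, limma adjusted p = 3.89e-06) and 0.49 against R7-III (limma adjusted p = 7.63e-05). R7-III against R7-I gave 0.25 and did not pass (limma adjusted p = 0.0230), though these libraries did not overlap, as for 29.5% of all genes that were higher in R7-III. Jarid2 was past 0.01 in that comparison when R7-II replicate 1 was left out of the fit (adjusted p = 0.00898).

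Mtf2, the most abundant Polycomb-like subunit here, measured 40.11, 38.31 and 37.77 TPM in the R7-I libraries, 50.48, 47.57 and 45.62 in those of R7-II and 39.05, 40.68 and 41.57 in those of R7-III. R7-II lay above both other clones, which overlapped. The log2 fold changes of 0.30 (SE 0.0472, limma adjusted p = 2.36e-04) and 0.24 (adjusted p = 0.00116) were near the shift of all genes: median-of-ratios scaling left 0.11 in both comparisons, and neither passed (adjusted p = 0.0350 and 0.0469). Mtf2 is thus the member whose call in R7-II depended on the scaling.

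Phf19 was the scarcest member and the 1 with the widest range. It measured 3.13, 2.77 and 2.80 TPM in the R7-I libraries, 1.19, 1.61 and 1.44 in those of R7-II and 5.29, 5.93 and 6.16 in those of R7-III. The clones were fully separate, in the same order as for Ezh2. Its mean of 1.41 ± 0.211 TPM in R7-II was 0.487 times the 2.90 ± 0.200 TPM of R7-I and 0.244 times the 5.79 ± 0.451 TPM of R7-III, and R7-III was 2.00 times R7-I. On the log2(TPM + 1) scale, which understates changes at such low levels, these were -0.69 (SE 0.0999, limma adjusted p = 1.21e-04), -1.49 (adjusted p = 5.64e-07) and 0.80 (adjusted p = 5.24e-04). Phf19 passed in all 3 comparisons under every alternative run.

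**Figure D2:**
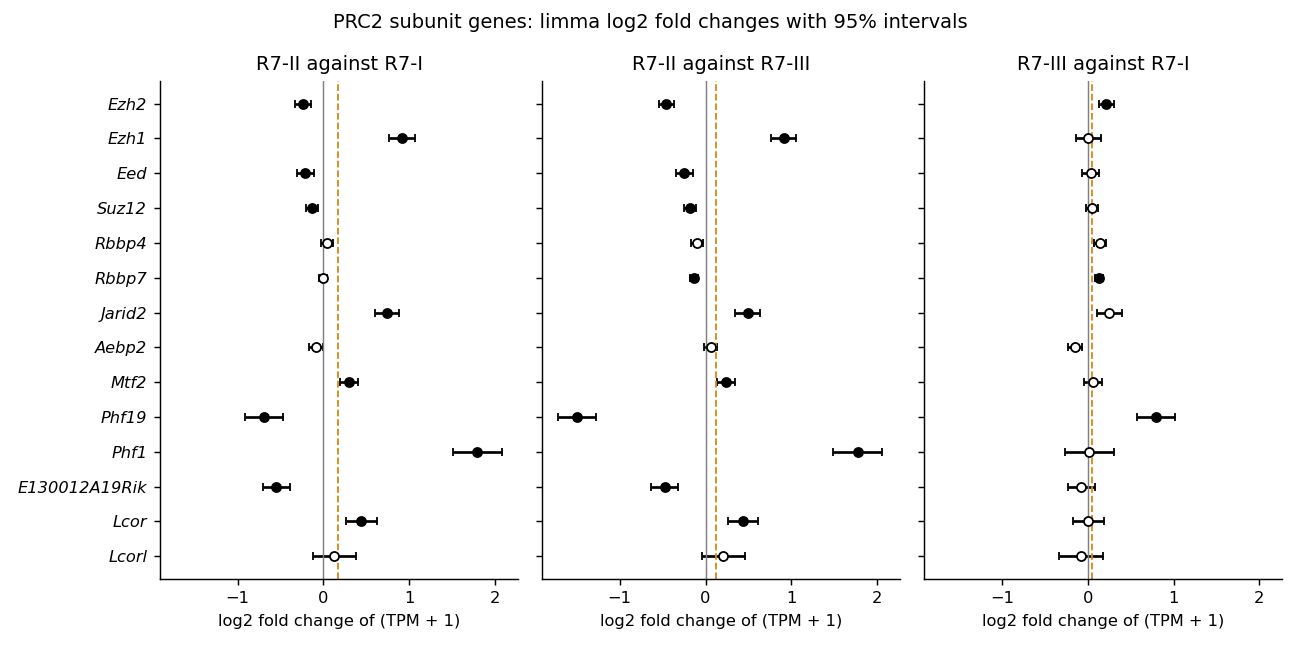
Log2 fold change of TPM + 1 for the 7 members and 7 other PRC2 subunits in the 3 comparisons, with 95% intervals from limma; filled points passed an adjusted p of 0.01, and the dashed line is the median over all genes tested (0.17, 0.12 and 0.04). Phf1 and Ezh1 lie farthest to the right and Phf19 farthest to the left in both comparisons of R7-II.

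The opposite moves of the accessory subunits also showed within libraries. Phf19 was 0.0748 ± 0.00293 of Mtf2 in R7-I, 0.0297 ± 0.00539 in R7-II and 0.143 ± 0.00675 in R7-III (exact permutation p = 0.00357, adjusted 0.00595), with log2 differences of -1.35 and -2.29 in R7-II and 0.94 between R7-III and R7-I. Mtf2 and Phf19 together were 2.15 ± 0.0600 times Jarid2 in R7-I, 1.49 ± 0.0663 times in R7-II and 1.99 ± 0.0300 times in R7-III (exact permutation p = 0.00357, adjusted 0.00595). The libraries of the 3 clones did not overlap in either ratio, so the RNA of this pair was least abundant relative to Jarid2 in R7-II. The pair leaves out Phf1, the remaining Polycomb-like gene. With Phf1 included, the Polycomb-like RNA came to 47.1, 71.0 and 51.8 TPM in R7-I, R7-II and R7-III, beside 19.3, 33.1 and 23.2 TPM of Jarid2. The ratio with Phf1 was not tested, so no shift of all Polycomb-like RNA against Jarid2 is claimed.

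**Figure D3:**
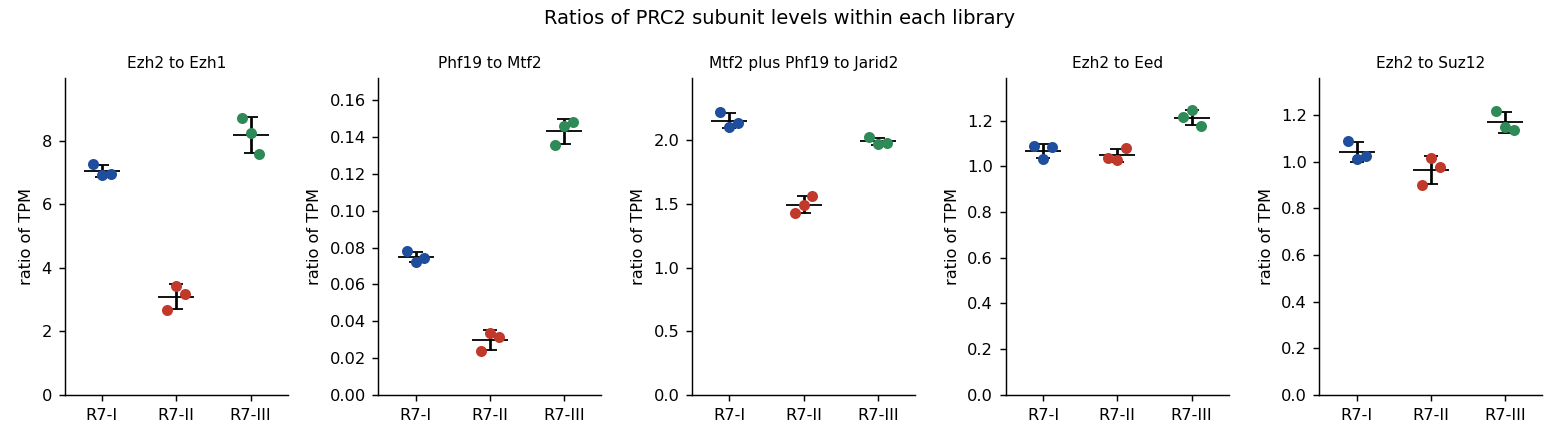
The 5 subunit ratios (ratio of TPM within a library, axis from 0) in the 9 libraries by clone; points are libraries, the long bar the mean and the whiskers the SD (n = 3). Ezh2 to Ezh1 is 3.09 in R7-II beside 7.05 and 8.17, whereas Ezh2 to Eed is between 1.05 and 1.21 in all 3 clones.

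Of 7 further PRC2 subunits, all of them tested, 2 were higher and 1 lower in R7-II than in R7-I, 2 were higher and 2 lower than in R7-III, and 1 was higher in R7-III than in R7-I, where 56.1%, 53.6% and 8.41% of all genes were called. With a median-of-ratios factor the counts were 2 higher and 4 lower, 2 higher and 3 lower, and 0 higher and 1 lower. The share of all genes called with that factor was not computed, here or for the lists below. Such counts therefore cannot be set beside the shares of all genes given for the main fit. The largest difference was in Phf1, the third Polycomb-like paralog. It measured 5.72, 5.33 and 5.34 TPM in the R7-I replicates, 25.62, 16.79 and 22.79 in those of R7-II and 5.59, 5.03 and 6.08 in those of R7-III. R7-II lay far above the other clones, which overlapped, with replicate 2 again its lowest library. Phf1 was 3.98 times R7-I (log2 fold change 1.79, SE 0.129, limma adjusted p = 9.50e-07) and 3.90 times R7-III (1.77, adjusted p = 9.81e-07), with 0.02 between R7-III and R7-I (adjusted p = 0.939).

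Phf1 made up 11.6% ± 0.103 of the summed Polycomb-like RNA in R7-I, 30.4% ± 4.30 in R7-II and 10.7% ± 0.872 in R7-III. Mtf2 held 82.2% ± 0.312, 67.6% ± 3.92 and 78.1% ± 0.770, and Phf19 held 6.15% ± 0.217, 2.01% ± 0.452 and 11.2% ± 0.503. Mtf2 was thus the leading paralog in all 9 libraries, and the smaller places were taken mostly by Phf1 in R7-II and about evenly by Phf1 and Phf19 in R7-III. The sums were 47.1 ± 1.64, 71.0 ± 5.75 and 51.8 ± 1.95 TPM.

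Epop, listed as E130012A19Rik, which ties PRC2 to elongin B and C, was lower in R7-II, at 40.8 ± 3.07 TPM beside 60.2 ± 5.36 TPM in R7-I and 56.95 ± 2.88 in R7-III (log2 fold change -0.55 and -0.47, limma adjusted p = 5.69e-05 and 1.73e-04). Lcor, whose locus also encodes a PRC2-binding isoform that gene-level values do not set apart, was higher at 4.03 ± 0.105 TPM beside 2.70 ± 0.137 and 2.72 ± 0.0306 TPM (0.44 and 0.43, adjusted p = 5.89e-04 and 7.10e-04), calls that quantile normalization took away (0.08 and 0.25, adjusted p = 0.350 and 0.0137), and its paralog Lcorl was not called in any comparison. The histone-binding chaperones Rbbp4 and Rbbp7, which also serve in other complexes, and Aebp2, the partner of Jarid2, changed little. Rbbp7 was lower in R7-II than in R7-III (-0.13, adjusted p = 3.99e-04; -0.07 and adjusted p = 0.0170 with quantile normalization) and higher in R7-III than in R7-I (0.13, adjusted p = 0.00310), the latter lost with a median-of-ratios factor (0.08, adjusted p = 0.0729) and without any 1 of the 6 libraries compared. Rbbp4 gave 0.04, -0.10 and 0.14 and Aebp2 -0.09, 0.06 and -0.15 in the order of the comparisons above, none of which passed. After median-of-ratios scaling Rbbp4 turned to -0.15 in R7-II against R7-I (adjusted p = 0.00344) and Aebp2 fell to -0.28 (adjusted p = 9.95e-05), so no direction is given for either gene.

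In level, the members fell into 3 tiers that were shared by all clones. Ezh2, Suz12 and Eed were at or above 91.63 TPM in every library, at percentiles 87.2, 86.4 and 85.8 of the mean level over the genes tested. Mtf2 lay at percentile 67.0, Jarid2 at 53.2 and Ezh1 at 49.7, and Phf19 at 17.6. In R7-II Ezh1 and Jarid2 were close (32.6 ± 2.67 and 33.1 ± 3.02 TPM), within 1 SD of each other, whereas in R7-III Jarid2 was above Ezh1 (23.2 ± 1.17 and 16.9 ± 1.23 TPM).

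The genes lie on 6 chromosomes (build GRCm38, the same as the mm10 of the files; RefSeq): Ezh2 at chr6:47530274-47595270, Ezh1 at chr11:101191115-101226463, Eed at chr7:89954654-89980976, Suz12 at chr11:79993106-80034123, Jarid2 at chr13:44730774-44921643, Phf19 at chr2:34893752-34914353 and Mtf2 at chr5:108065660-108109219. Ezh2 is on the chromosome of the T cell receptor beta locus, which is rearranged in all 3 lines, at a distance of 5.97 Mb. The reads kept no strand, so RNA from an overlapping gene on the other strand cannot be told apart. In the GENCODE annotation such overlaps cover 2.61% of the exonic bases of Ezh2 (Gm26625), 6.82% of Eed (E230029C05Rik), 3.60% of Suz12 (Gm26563) and 6.93% of Mtf2 (Tmed5), and none of those of Ezh1, Jarid2 and Phf19.

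The promoters of the 7 members were searched for an E2F-type motif, the sequence bound by E2F factors that drive genes of the division cycle. Stretches that hold it are shown, and its part in the levels of these genes was not tested. The motif was searched as TTTGGCGC, TTTCCCGC, TTTCGCGC or TTTGCCGC on both strands, from 250 bases before to 50 bases after the start site (RefSeq, GRCm38.p6). Of the 7 members, all of which have a window, 3 held 1 match each, and of all 8504 tested genes with a window 4.89% did. The stretch of Ezh1 at the same place as that of Ezh2 is given for comparison. All are written 5′ to 3′ on the strand of the gene, with the match in capitals.
Ezh2: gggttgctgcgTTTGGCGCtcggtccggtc
Suz12: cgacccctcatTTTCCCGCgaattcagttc
Phf19: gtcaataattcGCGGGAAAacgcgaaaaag
Ezh1: gcgtggccgcggcgcaggggcgtggccgta
These lie at chr6:47595009-47595038 (minus strand), chr11:79992876-79992905 (plus), chr2:34914166-34914195 (minus) and chr11:101226442-101226471 (minus). The match begins 3 bases after the start site in Ezh2, 219 bases before it in Suz12 and 208 bases before it in Phf19, where it reads on the opposite strand. The windows of Ezh2 and Phf19 are those of transcripts that start at positions 47595030 and 34913976, which lie 240 and 377 bases inside the outer ends of the gene spans given above. Eed, which was lower in R7-II as Ezh2, Suz12 and Phf19 were, held no match, nor did Ezh1, Jarid2 or Mtf2. A match describes letters and not binding, which was not measured here.

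The levels of the listed genes of replication and proliferation are given beside these members. In R7-II 17 of 18 were lower than in R7-I and all 18 lower than in R7-III, with medians of -0.72 and -1.46, and 15 were higher in R7-III than in R7-I (median 0.59). Over all genes 15.5% and 18.0% were lower, and 6.96% higher, in these comparisons. E2f2 was the 1 exception, at 0.60 in R7-II against R7-I. With a median-of-ratios factor 17 and 18 were again lower in R7-II, and 11 were higher in R7-III than in R7-I. Cdk1, the mitotic kinase, changed by -1.92 and -2.92 in R7-II, Rrm2, a subunit of ribonucleotide reductase, by -1.84 and -3.13, and Ccna2, cyclin A2, by -1.53 and -2.90. The summed level of the list was 2719 to 2884 TPM in R7-I, 1792 to 2027 in R7-II and 3605 to 3763 in R7-III, the order in which Ezh2 and Phf19 also stood. Its part in the PRC2 values was not tested.

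By likeness of profile over the 9 libraries (the root mean square difference of log2(TPM + 1) after centring each gene on its mean, among 8838 genes with a mean TPM of at least 5), the genes nearest to Ezh2 were Etfb (0.0370), Tdp1 (0.0386), Rmdn3 (0.0402), Smco4 (0.0426) and Itpa (0.0432). For scale, the profile of Ezh2 itself had a root mean square of 0.191. Of its partners Eed ranked 313 and Suz12 750 in likeness to Ezh2, and Ezh1 ranked 8286, near the far end. The genes nearest to Ezh1 were Cep350 (0.0326), Fam134c (0.0481), Phc3 (0.0505), Rictor (0.0539) and Tec (0.0546), with a root mean square of 0.437 for Ezh1 itself, and Jarid2 ranked 656. Phc3, a subunit of the partner complex PRC1, measured 16.1 ± 0.556, 32.4 ± 3.74 and 16.2 ± 0.800 TPM in R7-I, R7-II and R7-III, mean levels close to those of Ezh1.

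PRC1 places ubiquitin on histone H2A and acts with PRC2. Of 20 subunit genes, all tested, 9 were higher and 2 lower in R7-II than R7-I, and 7 higher and 4 lower than R7-III, with medians of 0.09 and 0.11 that lie below those of all genes. The shares higher were near the background of 40.6% and 35.6%. The largest shared changes were in the polyhomeotic genes Phc3 (0.96 and 0.95) and Phc1 (0.55 and 0.54) and in Cbx7 (0.62 and 0.54), a reader of the H3K27 mark. Cbx7 lost its call against R7-III with a median-of-ratios factor (0.41, limma adjusted p = 0.0130). With single libraries left out its adjusted p in that comparison reached 0.0157. Under median-of-ratios scaling, for which no share of all genes was computed, the split was 7 higher and 5 lower against R7-I, and 3 and 5 against R7-III. The H2A deubiquitinase list holds the enzyme that removes that ubiquitin and its cofactors. All 3 genes were higher than in R7-I and 2 were higher than in R7-III (2 and 2 with a median-of-ratios factor). Those 2 were the cofactors Asxl1 (0.38 and 0.44) and Asxl2 (0.36 and 0.33). The gene of the enzyme was not called against R7-III.

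Both enzymes that remove the H3K27 mark were higher in R7-II, a direction called for 40.6% of all genes against R7-I and 35.6% against R7-III. Libraries lay apart in that direction for 50.6% and 46.4% of all genes. The pair was not tested against these shares. Kdm6a measured 25.61, 24.85 and 25.56 TPM in the R7-I replicates, 37.92, 33.80 and 35.42 in those of R7-II and 24.34, 24.54 and 26.54 in those of R7-III, so R7-II stood alone above the others (log2 fold change 0.48 and 0.49, limma adjusted p = 2.02e-05 and 1.82e-05). Kdm6b measured 47.26, 45.24 and 49.98 TPM in the R7-I libraries, 66.04, 54.95 and 65.77 in those of R7-II and 38.52, 41.83 and 43.99 in those of R7-III. R7-II again did not overlap the others (0.38 and 0.57, limma adjusted p = 0.00104 and 6.52e-05), but its difference from R7-I did not pass after median-of-ratios scaling (0.19, adjusted p = 0.0193).

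Of 11 Trithorax and H3K36 methyltransferase genes, whose marks hinder PRC2, 10 were higher and 1 lower in R7-II against each other clone, with medians of 0.46 and 0.51, beside 40.6% and 35.6% of all genes higher and 15.5% and 18.0% lower. With a median-of-ratios factor, for which no share of all genes was computed, 8 were higher and 1 lower in both. Kmt2a, which methylates lysine 4 of histone H3, rose from 34.4 and 32.9 TPM in R7-I and R7-III to 60.8 TPM in R7-II (0.80 and 0.86). Nsd3 (Whsc1l1) rose from 39.2 and 42.9 to 83.2 TPM (1.06 and 0.94), and its paralog Nsd2 (Whsc1) was the gene that fell, to 15.7 TPM from 27.3 in R7-I and 43.5 in R7-III (-0.77 and -1.43). Nsd2 was also the 1 gene of this list called between R7-III and R7-I (0.65, limma adjusted p = 7.85e-04). The 6 H3K9 methyltransferases, enzymes of another silencing mark, gave 3 higher and 2 lower against R7-I and 1 higher and 2 lower against R7-III, shares to be read beside the same background. With a median-of-ratios factor, again without a share of all genes beside it, 0 were higher and 3 lower, and 0 higher and 4 lower. Suv39h2 was lower by -0.41 and -0.49 and Suv39h1 by -0.25 and -0.42, whereas Setdb2 gave 0.26 and 0.23 and lost both calls after median-of-ratios scaling (0.08 and 0.10).

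**Figure D4:**
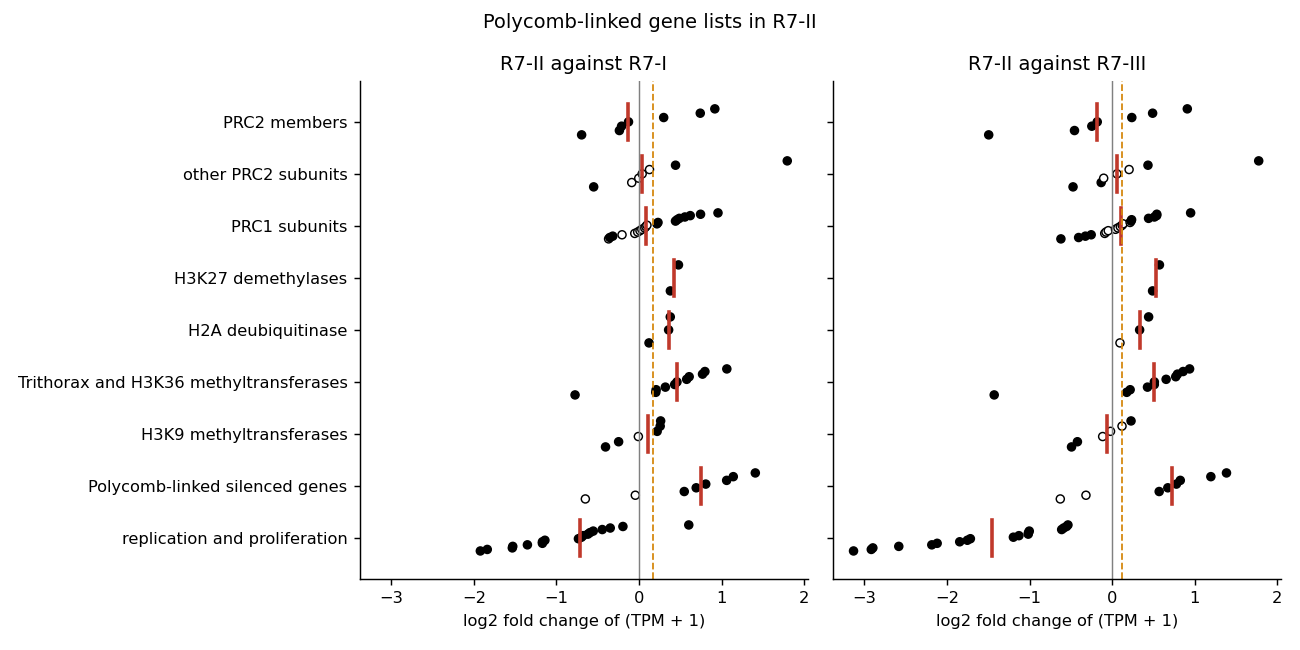
Log2 fold change of TPM + 1 of each tested gene of 9 lists in R7-II against R7-I and against R7-III; filled points passed an adjusted p of 0.01, red bars are list medians and the dashed line is the median of all genes tested. Replication and proliferation genes lie to the left (medians -0.72 and -1.46), and the silenced genes and the Trithorax and H3K36 list to the right.

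Genes that PRC2 is known to silence in T cells or other cells were listed as well, 13 in all. Of the 8 that passed the filter, 6 were higher in R7-II than in each other clone (of all genes, 40.6% and 35.6%) and 0 were lower, with medians of 0.75 and 0.73. With a median-of-ratios factor 6 were higher and 0 lower against R7-I, and 6 higher and 1 lower against R7-III. Tcf7, a transcription factor of naive and memory T cells, stood at 174.36, 167.71 and 198.04 TPM in the R7-I libraries, 513.94, 411.07 and 517.66 in those of R7-II and 179.64, 185.40 and 182.71 in those of R7-III. The lowest R7-II library (411.07) was thus far above the highest of the other clones (198.04), with log2 fold changes of 1.41 and 1.38. Replicate 2 was the lowest in R7-II here, as for Ezh1 and Phf1 but not for Jarid2 and Mtf2. Foxo1, a transcription factor of resting T cells, changed by 0.81 and 0.82.

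Id3, Ccr7 and Bcl2l11, an initiator of apoptosis, were also among the genes called. Eomes gave -0.65 and -0.63 in R7-II (limma adjusted p = 0.0388 and 0.0454) and Gata3 -0.04 and -0.32 (adjusted p = 0.705 and 0.0169), and neither was called. Cdkn2a, the cell cycle inhibitor that is a classical PRC2 target, was at 0.10 TPM in R7-I replicate 2 and listed at 0 in the other 8 libraries, and it was not tested. Cdkn2b, Cdkn1c, Zbtb16 and Prdm1 did not pass the filter either. Between R7-III and R7-I limma called 0 of these 8 genes, and 3 had an unadjusted p under 0.05. Whether the H3K27 mark differed at these genes was not measured.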

How the data were processed

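The authors aligned the reads of 9 libraries with RSEM 1.2.11 to the RefSeq genes of mm10, and what they deposited is TPM for each gene, which keeps no depth. Their DESeq2 1.8.1 test ran on counts that were not used here. TPM was tested as log2(TPM + 1) with limma 3.58.1 (eBayes with trend) in R 4.3.3, 1 fit over all 9 libraries, for genes with a maximum TPM above 1, Benjamini-Hochberg adjusted, with a threshold of 0.01. Ratios were formed within libraries and tested by exact permutation of the F statistic (Python 3.11.15, scipy 1.17.1; threshold 0.05). The fit was tested on simulated data first. Members and lists were chosen with earlier results of these data known. Genes named were all members and other PRC2 subunits, both demethylases and Cdkn2a, the 3 genes of each other list with the largest change shared by both R7-II comparisons, and the 5 most like Ezh2 and Ezh1; E2f2, the genes of the silenced list beside Tcf7 and Foxo1, Cbx2 and Cbx6 were named after their values were seen. The values of 1 further gene of the silenced list are not reported here, though it is in the counts. The unstimulated samples were not analysed here.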

Additional observations from a re-analysis of the deposited data

How the results depend on the processing

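Over 399 recomputed fold changes of the 7 members (19 alternatives in each comparison: pseudocount, filter, scaling, moderation, samples in the fit, replicate block, threshold and each library left out), 372 kept direction and call, 19 lost the call and 3 gained it. In 5, all for R7-III against R7-I and called in neither fit, the sign turned: Ezh1 (to -0.04, -0.07 and -0.05), Eed (to -0.02) and Suz12 (to -0.00). The count of 2 members called between R7-III and R7-I became 1 with median-of-ratios scaling, with quantile normalization, without the trend and with the replicate number as a block, and was 1 to 3 when single libraries were left out; without R7-II replicate 1 Jarid2 was added, and the member lost was Ezh2 (limma adjusted p = 0.0448, 0.0217, 0.0159 and 0.0125 in these 4 fits), and the cause was not tested. Mtf2 lost both R7-II calls with quantile normalization too (0.10 and 0.09), and Suz12 lost its call against R7-I without the trend (adjusted p = 0.0136). Of 47 sign turns over all named genes, 45 were in changes called in neither fit, and 2 in a change called in 1 of them: Rbbp4 in R7-II against R7-I with median-of-ratios scaling (-0.15) and Setdb2 in the same comparison with quantile normalization (-0.00106). The log2 balance of Ezh2 to Ezh1 in R7-II against the mean of the other clones was -1.30 and stayed between -1.38 and -1.20. Deviations of same-numbered libraries correlated at -0.0449 to 0.0888, and 7 of 18 best matches were with the own number, so the numbers were not taken as pairs. Permuting within the replicate block, the balance gave an exact p of 0.0278 and Ezh2 to Suz12 lost its call (adjusted p = 0.0556); beyond these and Ezh2 the block changed no call of a member or ratio. Depth is unknown for TPM.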

Other observations

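Among the PRC1 genes, Cbx2 and Cbx6 did not follow the split of R7-II from the other clones. Cbx2 measured 5.63, 7.99 and 8.47 TPM on average in the order R7-I, R7-II, R7-III, and Cbx6 10.95, 15.4 and 16.0 TPM. They were the 2 subunits of 20 called between R7-III and R7-I (log2 fold change 0.52 and 0.51, limma adjusted p = 0.00120 and 5.85e-04). Of all genes, 8.41% were called in that comparison, 6.96% higher, so the count is near the background. Cbx2 and Cbx6 also exceeded R7-I in the R7-II cells (0.44 and 0.46). On the TPM scale R7-I was thus the clone that stood apart, while R7-II and R7-III differed by -0.07 and -0.05 (adjusted p = 0.397 and 0.536). With a median-of-ratios factor R7-II exceeded R7-I by 0.28 and 0.29. Its difference from R7-III was then -0.19 and -0.17 (limma adjusted p = 0.0318 and 0.0312, not called). How far R7-I alone stood apart thus depends on the scaling. Both genes were named after their values were seen.

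Fam134c (Retreg3), the gene second in likeness to Ezh1, measured 43.4 ± 1.51, 79.8 ± 6.41 and 44.7 ± 1.62 TPM in the same order of clones.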
